A study of Mus musculus with 8 samples.

Results

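A set of 43 mouse genes that copy DNA and run S phase was followed on 8 one-colour Agilent arrays of whole ovary, 3 of wildtype ovary and 5 of ovarian neoplasia. The genes were listed by name with earlier results of these data known, and their probes were found through the transcript accession that each carries. The genes had 49 probes, and all 43 had at least 1. Of them, 41 were well above background on at least 3 arrays and were tested among 25169 features. Ccne2, a cyclin that drives entry into S phase, was well above background on 0 of 8 arrays. Orc1, the largest subunit of the complex that marks replication origins, was above background on 2 of 8 arrays, both of wildtype ovary. Neither was tested, and neither is counted further.

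The mice were 33 weeks old and were cycling when the ovaries were taken and flash-frozen. The wildtype group is labelled as healthy ovary. The neoplasia group is labelled tumorigenic, with the genotype given as Pgrcre/+mPgrLsL/+ on the samples and as Pgrcre/+PgrBLsL/+ in the series' design text. Both forms put Cre at 1 allele of Pgr, the gene of the progesterone receptor, beside an LsL allele of the receptor. An LsL allele is silent until Cre removes a stop cassette, so it can be switched on only in cells, or descendants of cells, in which Pgr was active. No label gives the stage of the cycle, the cell content of the neoplasias or whether each array came from its own animal; the p-values therefore reflect sample-to-sample spread, which may be technical.

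Before S phase, the origin recognition complex, Cdc6 and Cdt1 load the Mcm2 to Mcm7 ring onto DNA. Cdc45 and the GINS complex turn that ring into a helicase, and polymerases, a sliding clamp and its loader then copy both strands. Many of these genes are targets of E2F factors, which are released when cyclin E and its kinase act on Rb. In the adult ovary, the granulosa cells of growing follicles are a main site of cell division.

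The RefSeq promoter table of GRCm38.p6, with windows from 250 bases before to 50 after a gene's start, held 35 of the 43 genes. E2F sites were searched as TTTCCCGC, TTTGGCGC, TTTCGCGC and TTTGCCGC on both strands, and words on opposite strands can overlap. Some genes have more than 1 window, and a gene was counted if any of its windows held a word. At least 1 word lay in a window of 14 of the 35 genes (40.0%), against 704 of 27025 genes in the table (2.6%). Counted by window, the shares were 34.1% of 41 and 2.26% of 32851. The word CCAAT, searched in the same way, lay in 20 of 35 (57.1%) against 41.1% of all genes, and TTTGAA in 5 of 35 (14.3%) against 20.2%. Of the 10 genes that rose in the neoplasia, described below, 4 held an E2F word (Cdt1, Gins3, Lig1 and Mcm6), as did 9 of the 24 with a window that were tested and did not pass. The 250 bases before the start are shown for 5 genes, 5′ to 3′ along the gene, with E2F words of either strand in capitals. Mcm6 and Gins3 rose and hold such a word, Cdc6 and Mcm5 hold one and passed the test only without neoplasia 5, and Rrm2 had the largest rise with none of the 4 words in its window.
Mcm6: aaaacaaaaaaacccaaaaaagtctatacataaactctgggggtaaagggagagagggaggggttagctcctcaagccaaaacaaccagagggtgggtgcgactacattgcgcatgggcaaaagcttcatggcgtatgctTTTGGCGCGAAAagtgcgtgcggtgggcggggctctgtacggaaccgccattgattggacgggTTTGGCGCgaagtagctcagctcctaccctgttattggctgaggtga
Gins3: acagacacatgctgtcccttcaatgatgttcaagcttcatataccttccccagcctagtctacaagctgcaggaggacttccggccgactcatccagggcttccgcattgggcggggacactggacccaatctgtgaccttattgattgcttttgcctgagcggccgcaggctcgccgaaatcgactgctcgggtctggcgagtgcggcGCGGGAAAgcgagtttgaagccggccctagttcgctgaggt
Cdc6: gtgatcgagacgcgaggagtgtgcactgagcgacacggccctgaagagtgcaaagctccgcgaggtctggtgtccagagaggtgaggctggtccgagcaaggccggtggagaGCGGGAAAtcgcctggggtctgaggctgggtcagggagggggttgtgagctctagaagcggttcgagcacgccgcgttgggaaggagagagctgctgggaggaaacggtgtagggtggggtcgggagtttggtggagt
Mcm5: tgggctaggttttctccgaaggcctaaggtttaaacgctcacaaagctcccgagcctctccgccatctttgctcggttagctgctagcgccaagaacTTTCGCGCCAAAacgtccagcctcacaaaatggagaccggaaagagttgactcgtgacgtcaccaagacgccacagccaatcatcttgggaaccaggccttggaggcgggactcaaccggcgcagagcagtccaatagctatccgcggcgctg
Rrm2: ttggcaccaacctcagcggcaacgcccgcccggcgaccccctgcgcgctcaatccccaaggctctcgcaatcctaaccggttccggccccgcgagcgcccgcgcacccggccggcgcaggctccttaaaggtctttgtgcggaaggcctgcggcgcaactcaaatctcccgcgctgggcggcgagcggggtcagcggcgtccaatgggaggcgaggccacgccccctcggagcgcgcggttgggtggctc
These stretches lie at chr1:128359706-128359955 (minus strand), chr8:95633309-95633558 (plus strand), chr11:98907901-98908150 (plus strand), chr8:75109259-75109508 (plus strand) and chr12:24708004-24708253 (plus strand), in that order. Mcm6 has 2 overlapping words that begin 110 and 106 bases before the start and 1 more word at 47 bases. In Gins3 the word begins at 41 bases, in Cdc6 at 138, and in Mcm5 an overlapping pair begins at 153 and 149. A match is a description of letters, not a measured binding site.

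Levels are log2 of the processed spot intensity relative to the 75th percentile of the same array, so 0 is the brightness of the 75th percentile and 1 unit is a doubling. Levels of different genes come from different probes. They are set against each other only as changes between arrays and in the sums of cell type markers. The arrays lay on 1 slide, with neoplasia 1 to 4 in its first row and neoplasia 5 with the 3 wildtype arrays in its second, so slide row and the difference between neoplasia 5 and the other neoplasias cannot be told apart. The 75th percentile of signal was 309 to 429 on the neoplasia arrays and 462 to 515 on the wildtype arrays, and no probe was saturated. The targeted gene matched the labels through 1 of its 2 probes: A_51_P213476 of Pgr was at 3.12 to 4.88 on the 5 neoplasia arrays and at -4.25, -4.19 and -7.22 in wildtype 1 to 3, the last not well above background, and A_55_P2095663 was above background on the 3 wildtype arrays and on 0 of 5 neoplasia arrays. Probe sequences were not used here, so the part of Pgr that each probe reads is not stated.

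Replication genes were higher in the neoplasia or did not pass the test, and none fell. Of the 41 tested, 10 rose and 0 fell at an adjusted p of 0.05 (limma with Benjamini-Hochberg adjustment over all features). At an unadjusted p under 0.05 there were 16 higher and 0 lower. Over all 25169 features, 30.3% passed the test in either direction, 16.8% as higher and 13.5% as lower. The median difference of the 41 genes was 0.71 on the log2 scale against 0.13 over all features, and 38 of the 41 differences were positive. The 5 neoplasia arrays lay above all 3 wildtype arrays for 11 genes, the 10 that rose and Orc6, against 22.9% of all features. Because 4 of the 5 neoplasias lie in another slide row than every wildtype array, row was also fitted as a block: 0 of the 41 then passed, against 6.13% of features (limma; 1 higher and 2 lower at an unadjusted p under 0.05), and the median difference was 0.0092. Without wildtype 1 a single gene, Rrm2, passed, and the median difference was 0.62, against 0.12 over all features. The share of all features that passed without wildtype 1 is not given, and whether the loss is particular to these genes was not tested. The counts also depend on the values used: with scaling on spike-in controls 2 genes rose, against 2.93% of features, and 25 of 41 differences were positive, and in the deposited log2 values, which carry no scaling between arrays and also average the spots of an accession, 3 rose and 1 fell, against 6.06% and 24.4% of features. Lig1 and Rrm2 passed under both, and E2f1 in the deposited values. With quantile normalization Gins3, Mcm6 and Pcna no longer passed, and without a filter on dim probes Cdt1, Mcm6, Pcna and Pola2 did not. The genes' median minus that of all features was 0.58, which a shift of whole arrays leaves as it is, and was 0.38 with normexp, 0.43 with quantile normalization and -0.03 with slide row as a block. Spike-in scaling moved the median of all features from 0.13 to -0.46, and the deposited values have it at -0.34. The spike-in level, a mean log2 over 5 of 10 controls, was 8.90 on neoplasia 1 and 10.04 to 10.75 on the other arrays.

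**Figure D1:**
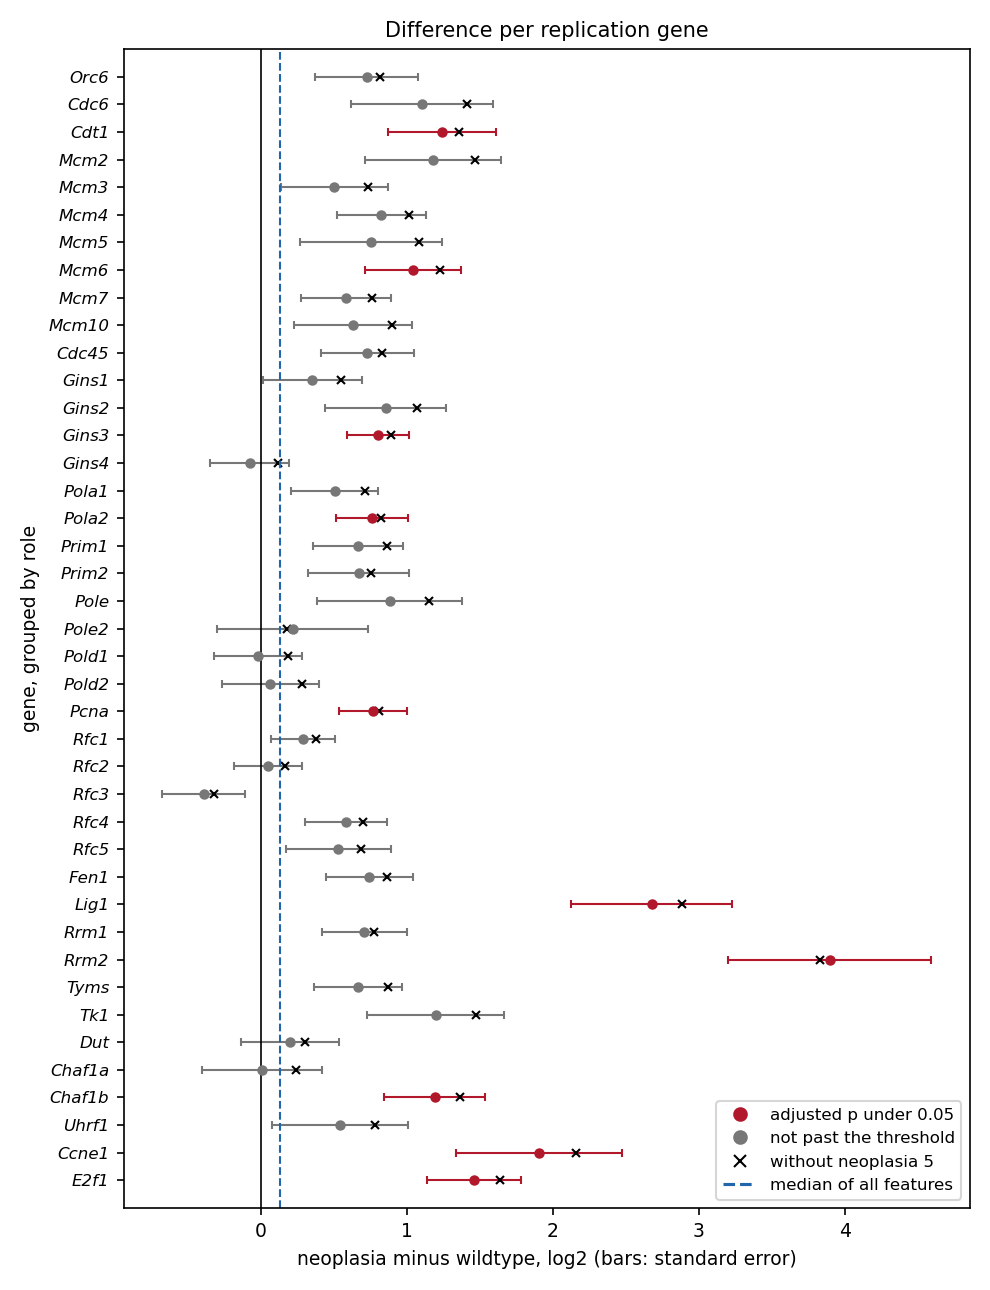
Difference between neoplasia and wildtype ovary for each of the 41 replication genes (x axis, log2; y axis, genes grouped by role from origin licensing at the top to G1-S control at the bottom). Points are the fitted difference and bars its standard error, red where the adjusted p is under 0.05, crosses are the difference without neoplasia 5, and the dashed line is the median of all features at 0.13; the 10 red genes run from Pola2 at 0.76 to Rrm2 at 3.89.

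Of the nucleotide supply enzymes, 1 of 5 rose, a share near the 16.8% of all features. Rrm2, the small subunit of ribonucleotide reductase that makes deoxynucleotides and is normally made in S phase, had levels of 1.57, 1.82 and 2.17 in wildtype 1 to 3 and 6.67, 3.98, 4.84, 7.24 and 6.01 in neoplasia 1 to 5. The groups did not overlap, and neoplasia 1, 4 and 5 were the highest. The difference was 3.89 ± 0.70 (SE), or 14.9-fold (limma adjusted p = 0.00606), and it passed the test with any 1 array left out (largest adjusted p = 0.0333). Rrm1, the large subunit of the same enzyme, stood at 1.46, 1.64 and 1.98 in wildtype 1 to 3 and 2.64, 1.91, 2.26, 3.05 and 2.12 in neoplasia 1 to 5. Wildtype 3 overlapped with neoplasia 2, and the difference of 0.71 ± 0.29 (SE) did not pass (adjusted p = 0.095). Tk1, which salvages thymidine, had levels of 0.36, 0.69 and 0.85 in wildtype 1 to 3 and 2.47, 1.37, 1.72, 2.87 and 0.72 in neoplasia 1 to 5, with neoplasia 5 inside the wildtype range (difference 1.20 ± 0.47 (SE), adjusted p = 0.0838). Tyms, which makes thymidylate, had a dim probe at -2.99, -2.97 and -3.02 in wildtype 1 to 3 and -2.06, -2.04, -2.51, -1.87 and -3.14 in neoplasia 1 to 5. Neoplasia 1 to 4 were above the wildtype arrays and neoplasia 5 was below them, with a difference of 0.66 ± 0.30 (SE) (adjusted p = 0.122; 0.0392 with normexp background correction, where the difference was 0.53). Dut, which removes dUTP, differed by 0.20 ± 0.34 (SE) (adjusted p = 0.67).

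Okazaki fragment joining was covered by 2 genes, and 1 rose, against 16.8% of all features. Lig1, the ligase that seals the fragments of the lagging strand, had levels of 2.48, 2.69 and 2.77 in wildtype 1 to 3 and 5.82, 3.99, 5.80, 6.52 and 4.48 in neoplasia 1 to 5. Neoplasia 4 was the highest, neoplasia 2 the lowest of the neoplasias, and the gap to the wildtype arrays was wider than the whole wildtype range. The difference was 2.68 ± 0.55 (SE), or 6.39-fold (limma adjusted p = 0.0108), and the adjusted p was 0.0505 without wildtype 1 and under 0.05 without any other array. Fen1, the nuclease that trims the fragments before joining, was at 1.68, 1.77 and 2.33 in wildtype 1 to 3 and 2.98, 2.52, 2.41, 3.27 and 2.18 in neoplasia 1 to 5. Neoplasia 5 lay inside the wildtype range and the difference of 0.74 ± 0.30 (SE) did not pass (adjusted p = 0.09).

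Both tested genes of G1-S control rose, against 16.8% of all features. Ccne1, the cyclin E that activates Cdk2 at the end of G1, had levels of -0.72, -0.72 and -0.09 in wildtype 1 to 3 and 2.65, 0.87, 0.69, 2.39 and 0.38 in neoplasia 1 to 5. Neoplasia 1 and 4 stood well above neoplasia 2, 3 and 5, and all 5 were above the wildtype arrays. Its difference was 1.91 ± 0.57 (SE), or 3.75-fold (limma adjusted p = 0.0366), and the call was lost when any wildtype array or neoplasia 4 was left out (adjusted p up to 0.123). A second, dimmer Ccne1 probe was 1.13 higher (adjusted p = 0.0605). E2f1, an activator of S-phase genes, had levels of -0.47, -0.33 and 0.14 in wildtype 1 to 3 and 1.77, 0.90, 1.37, 1.63 and 0.53 in neoplasia 1 to 5. Neoplasia 5 was the nearest to the wildtype arrays, and the groups did not overlap. E2f1 was higher by 1.46 ± 0.32 (SE), or 2.75-fold (adjusted p = 0.0139), with the call lost when wildtype 1 or 2 was left out (adjusted p up to 0.0694).

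Of the 9 origin licensing genes, 2 rose, a share near the 16.8% of all features, and the median difference was 0.83. Cdt1, the loader of the Mcm ring, had levels of 1.50, 1.81 and 1.86 in wildtype 1 to 3 and 3.55, 2.43, 2.55, 3.79 and 2.50 in neoplasia 1 to 5. Neoplasia 1 and 4 formed a high pair and the other neoplasias lay close together above the wildtype arrays. The difference was 1.24 ± 0.37 (SE), or 2.36-fold (limma adjusted p = 0.0367), and was lost when any wildtype array or neoplasia 1 or 4 was left out (adjusted p up to 0.133). Mcm6, a subunit of the ring, was at 4.29, 3.80 and 4.20 in wildtype 1 to 3 and 5.28, 4.77, 5.51, 5.73 and 4.40 in neoplasia 1 to 5. Neoplasia 5 lay just above the highest wildtype array. Mcm6 rose by 1.04 ± 0.33 (SE), or 2.06-fold (adjusted p = 0.0436), lost when any wildtype array or neoplasia 1, 3 or 4 was left out (adjusted p up to 0.153). The other 5 ring subunits did not pass, with differences of 1.18 for Mcm2, 0.83 for Mcm4, 0.75 for Mcm5, 0.58 for Mcm7 and 0.50 for Mcm3. In each of these 5, neoplasia 1 to 4 lay above all wildtype arrays and neoplasia 5 within or below their range. Cdc6, which works with Cdt1, had 2 probes that differed by 1.1 and 0.64, neither past the test. Orc6, an origin complex subunit, had levels of 1.97, 2.07 and 2.16 in wildtype 1 to 3 and 3.71, 2.23, 2.45, 3.16 and 2.42 in neoplasia 1 to 5. All 5 neoplasias were above the wildtype arrays, neoplasia 1 and 4 the furthest, and the difference of 0.72 ± 0.35 (SE) did not pass (adjusted p = 0.146).

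Of the 6 helicase activation genes, 1 rose, no larger a share than the 16.8% of all features (median 0.68). Gins3, a subunit of the 4-part GINS complex, was at 2.89, 3.0 and 3.04 in wildtype 1 to 3 and 3.97, 3.60, 3.74, 4.16 and 3.43 in neoplasia 1 to 5. The 3 wildtype arrays were close together and all 5 neoplasias lay above them. Gins3 differed by 0.80 ± 0.21 (SE), or 1.74-fold (limma adjusted p = 0.0252), lost when any wildtype array was left out (adjusted p up to 0.106). Its partners Gins1, Gins2 and Gins4 differed by 0.35, 0.86 and -0.08, with adjusted p of 0.441, 0.145 and 0.846. Gins4 had levels of 1.61, 1.73 and 1.55 in wildtype 1 to 3 and 1.89, 1.73, 1.68, 1.71 and 0.77 in neoplasia 1 to 5. Neoplasia 5 stood far below the other 7 arrays. Its difference from the wildtype mean was -0.86 (limma adjusted p = 0.0463 in slide row 2 alone, which holds no spread between neoplasias). Cdc45, which joins GINS and the ring in the active helicase, differed by 0.73 ± 0.32 (SE) (adjusted p = 0.111), and Mcm10, which helps to open the helicase, by 0.63 ± 0.41 (SE) (adjusted p = 0.255).

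Among the polymerases and primase, 1 of 8 rose, a smaller share than over all features (median 0.59). Pola2, the regulatory subunit of polymerase alpha that starts each new strand, had a dim probe at -3.15, -3.39 and -3.09 in wildtype 1 to 3 and -2.74, -2.48, -2.52, -1.82 and -2.70 in neoplasia 1 to 5. Neoplasia 4 stood above the other neoplasias, and all 5 were above the wildtype arrays. The difference of 0.76 ± 0.25 (SE), or 1.69-fold (limma adjusted p = 0.0484), was lost when any wildtype array or neoplasia 2, 3 or 4 was left out (adjusted p up to 0.164). Pola1, the catalytic subunit, was at -0.15, -0.04 and 0.20 in wildtype 1 to 3 and 0.79, 0.58, 0.89, 0.60 and -0.33 in neoplasia 1 to 5. Neoplasia 1 to 4 were above the wildtype arrays and neoplasia 5 was below them, and the difference was 0.51 ± 0.30 (SE) (adjusted p = 0.217). Primase subunits Prim1 and Prim2 differed by 0.67 and 0.67, and Pole, the catalytic subunit of the leading-strand polymerase, by 0.88 ± 0.50 (SE), none past the test. Its partner Pole2 was lowest on neoplasia 2, at -2.74, and differed by 0.22 ± 0.52 (SE). Polymerase delta subunits Pold1 and Pold2, of the lagging-strand enzyme, had differences of -0.02 ± 0.30 (SE) and 0.07 ± 0.33 (SE), both smaller than their errors.

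Clamp and clamp loader genes had the smallest median of the 8 roles, 0.41, and 1 of 6 rose, no larger a share than over all features. Pcna, the sliding clamp that holds polymerases on DNA, was at 3.32, 3.13 and 3.63 in wildtype 1 to 3 and 4.13, 3.77, 4.23, 4.57 and 3.96 in neoplasia 1 to 5. The highest wildtype and the lowest neoplasia array were close but did not overlap. Pcna rose by 0.77 ± 0.23 (SE), or 1.7-fold (limma adjusted p = 0.039), lost when any wildtype array or neoplasia 1, 3 or 4 was left out (adjusted p up to 0.149). Loader subunits Rfc1, Rfc2, Rfc4 and Rfc5 differed by 0.29, 0.05, 0.58 and 0.53, and none passed. The 2 probes of Rfc4 differed by 0.58 and 0.03. Rfc3, another loader subunit, had levels of -0.89, -0.70 and -0.48 in wildtype 1 to 3 and -0.68, -1.56, -1.28, -0.53 and -1.36 in neoplasia 1 to 5. Neoplasia 2, 3 and 5 were below all wildtype arrays and neoplasia 1 and 4 within their range. Its difference of -0.39 ± 0.28 (SE) did not pass (adjusted p = 0.31), and was -0.86 in the deposited log2 values, which are not scaled between arrays (adjusted p = 0.022).

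Chromatin assembly rose in 1 of 3 genes, against 16.8% of all features. Chaf1b, a subunit of CAF-1, which places histones behind the fork, was at 1.54, 1.64 and 1.99 in wildtype 1 to 3 and 2.75, 2.85, 2.92, 3.85 and 2.21 in neoplasia 1 to 5. Neoplasia 4 was the highest and neoplasia 5 the lowest neoplasia, above every wildtype array. Chaf1b rose by 1.19 ± 0.35 (SE), or 2.28-fold (limma adjusted p = 0.0342), and a second probe was 1.29 higher (adjusted p = 0.0272). The call was lost when any wildtype array or neoplasia 2 or 3 was left out (adjusted p up to 0.125). Chaf1a, the largest CAF-1 subunit, had levels of 0.18, 0.46 and 0.68 in wildtype 1 to 3 and 0.38, 0.20, 0.58, 1.56 and -0.48 in neoplasia 1 to 5. Neoplasia 4 was above the wildtype range, neoplasia 5 was below it, and the difference was 0.01 ± 0.41 (SE). Uhrf1, which binds new DNA that is methylated on 1 strand, differed by 0.54 ± 0.47 (SE) (adjusted p = 0.394).

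**Figure D2:**
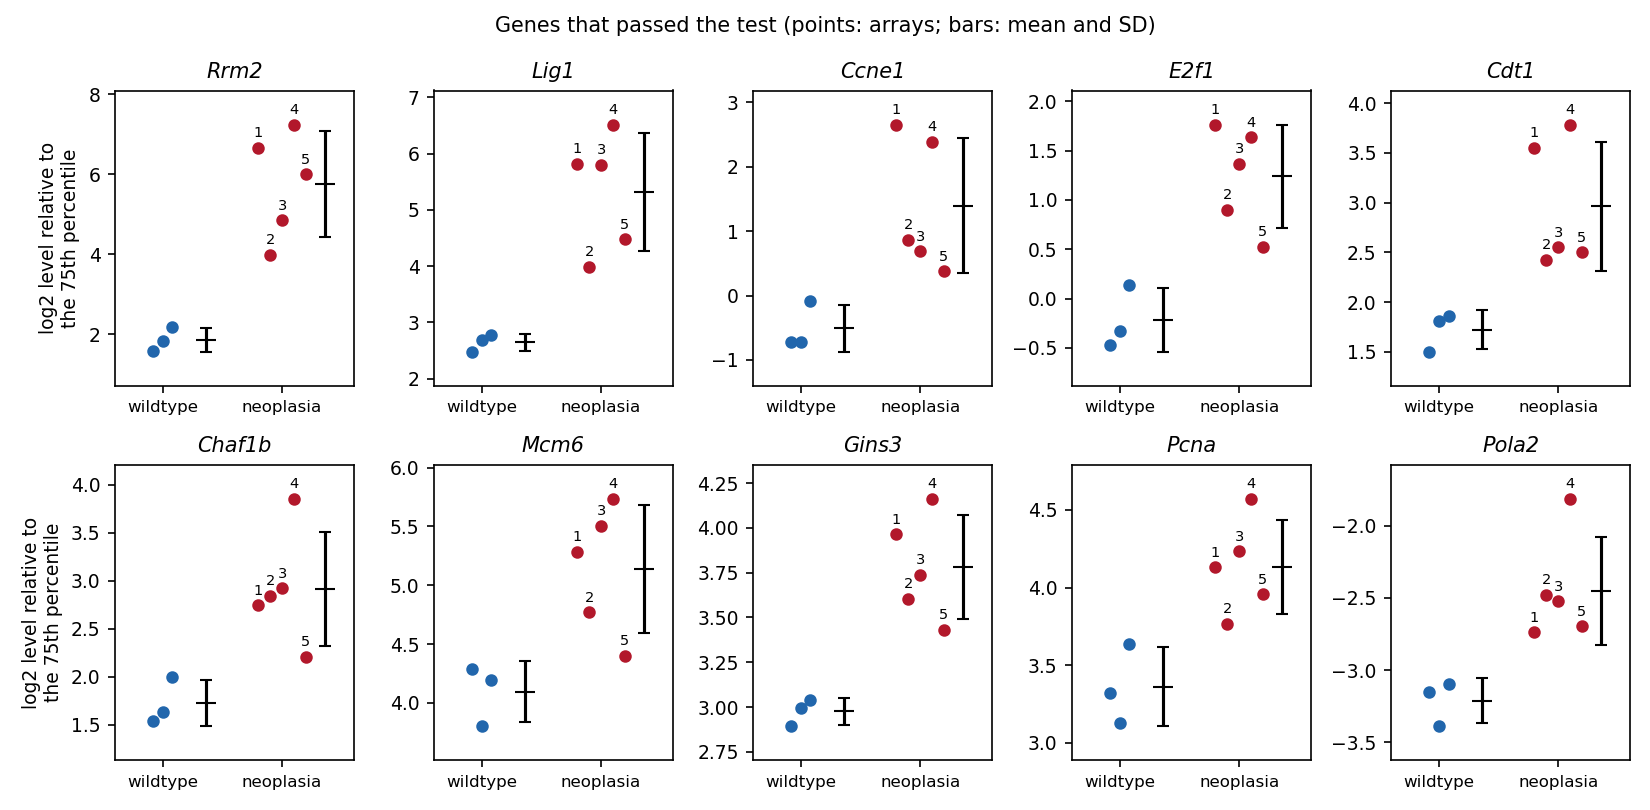
Levels of the 10 replication genes that passed the test, by group (y axis, log2 intensity relative to the array's 75th percentile, with its own range in each panel; the axes do not start at 0). Blue points are the 3 wildtype arrays, red points the 5 neoplasia arrays with their numbers, and black bars the mean and SD; neoplasia 1 or 4 is the highest in every panel and no group overlaps with the other.

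Subunits of a complex were set against each other through the difference between 2 genes on each array, which a shift of the whole array leaves as it is. The 6 pairs were chosen after their values were seen, so these values are a description and carry no test. Rrm2 minus Rrm1 was 3.19 higher in the neoplasia. Its change from the wildtype mean was 3.86, 1.90, 2.42, 4.02 and 3.72 in neoplasia 1 to 5, against -0.05 to 0.02 among wildtype, so all 5 neoplasias lay above every wildtype array. Chaf1b minus Chaf1a was 1.18 higher, with changes of 1.08, 1.36, 1.06, 1.01 and 1.41 in neoplasia 1 to 5 and -0.11 to 0.08 among wildtype. Pola2 minus Pola1 changed by 0.25, Prim2 minus Prim1 by 0.00, Pole2 minus Pole by -0.66 and Pold2 minus Pold1 by 0.08, and in none of these 4 pairs did all 5 neoplasias lie on the same side of the wildtype arrays.

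The neoplasias differed among themselves in these genes. For each array, the median over the 41 genes of the difference from the wildtype mean was 0.99, 0.52, 0.69, 1.36 and 0.01 in neoplasia 1 to 5. The same median over all features was 0.17, 0.12, 0.16, 0.17 and 0.04. Neoplasia 1 to 4 each lay above all 3 wildtype arrays for 38, 28, 34 and 39 of the 41 genes, and neoplasia 5 for 13, against 40.6% to 48.2% of all features. On neoplasia 5, 16 genes were below every wildtype array, near the share of all features (38.1%), and 12 within their range. The highest neoplasia was neoplasia 4 for 30 genes (73.2%), neoplasia 1 for 9 (22%) and neoplasia 3 for 2 (4.88%). Over all features these shares were 19.1%, 26% and 15.8%. The lowest was neoplasia 5 for 29 genes, against 32.7% of all features, and neoplasia 2 for 9 (22%), near its 19.5% of all features. The genes are not independent of each other, so these counts describe 5 arrays and carry no test.

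**Figure D3:**
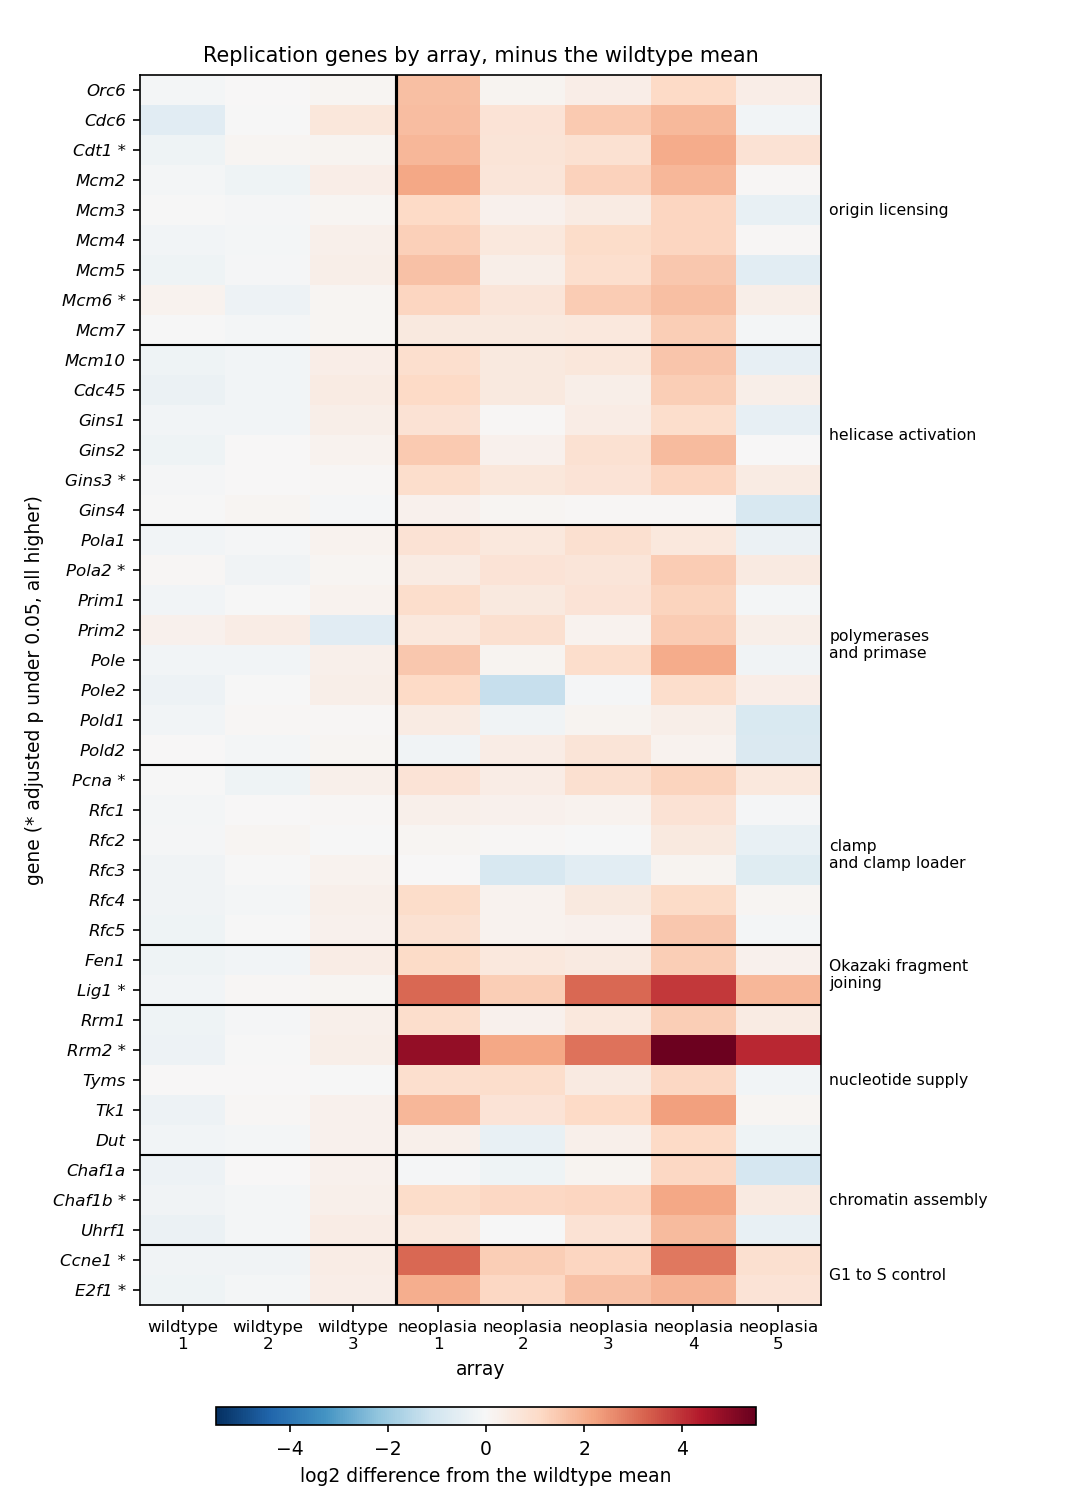
Level of each of the 41 tested replication genes on each array minus the wildtype mean of that gene (colour, log2, red higher and blue lower; rows, genes grouped by role; columns, arrays; the vertical line parts wildtype from neoplasia, and a star marks adjusted p under 0.05). Neoplasia 4, with a median of 1.36, is red in most rows, and neoplasia 5, with a median of 0.01, is red in some and blue in others.

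The spread between neoplasias was wider than between wildtype arrays for 40 of the 41 genes, with a median SD of 0.56 (n = 5) against 0.24 (n = 3). Over all features the neoplasia spread was the wider for 21333 of 25169, and the median SDs were 0.47 and 0.20. The wildtype arrays also had an order: wildtype 3 was the highest of them for 35 of 41 genes, against 54.0% of features. Wildtype 1 was the lowest for 29, against 33.5% of features. The medians of wildtype 1 to 3 from the wildtype mean were -0.16, -0.05 and 0.23.

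Without neoplasia 5, 21 of the 41 genes rose and 0 fell, against 22.5% of all features higher and 17.1% lower. Every neoplasia is then in slide row 1 and every wildtype array in row 2, so these rises cannot be told apart from slide row. The 10 genes of the full comparison were among them, and the others were Cdc6, Fen1, Mcm2, Mcm4, Mcm5, Mcm7, Mcm10, Pola1, Prim1, Tk1 and Tyms. Licensing then had 7 of 9 genes higher, among them 5 of the 6 ring subunits (all but Mcm3, adjusted p = 0.0665). The median difference was 0.82. In slide row 2 alone, neoplasia 5 against the wildtype arrays, the lone neoplasia is assumed to vary like the wildtype arrays. The differences were 4.15 for Rrm2, 1.83 for Lig1 and -0.86 for Gins4, for which neoplasia 5 stood far from the other neoplasias. Of the 41 differences 21 were positive and 20 negative, and their median was 0.0092, against 0.039 over all features. The fit with slide row as a block gives the same differences as this comparison of neoplasia 5 with the wildtype arrays.

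Neoplasia 5 lay below the mean of neoplasia 1 to 4 by a median of 0.92 over the 41 genes (a difference of -0.92), against -0.16 over all features. Only Rrm2 and Pole2, 2 of the 41, were above that mean, against 10278 of 25169 features. Rrm2 was 4.15 above the wildtype mean on neoplasia 5 and 3.83 on average on neoplasia 1 to 4. Lig1 was 1.83 above it on neoplasia 5 and 2.89 on neoplasia 1 to 4. For Mcm5 the same values were -0.56 and 1.08, for Mcm2 0.05 and 1.46, and for Tk1 0.09 and 1.48.

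**Figure D4:**
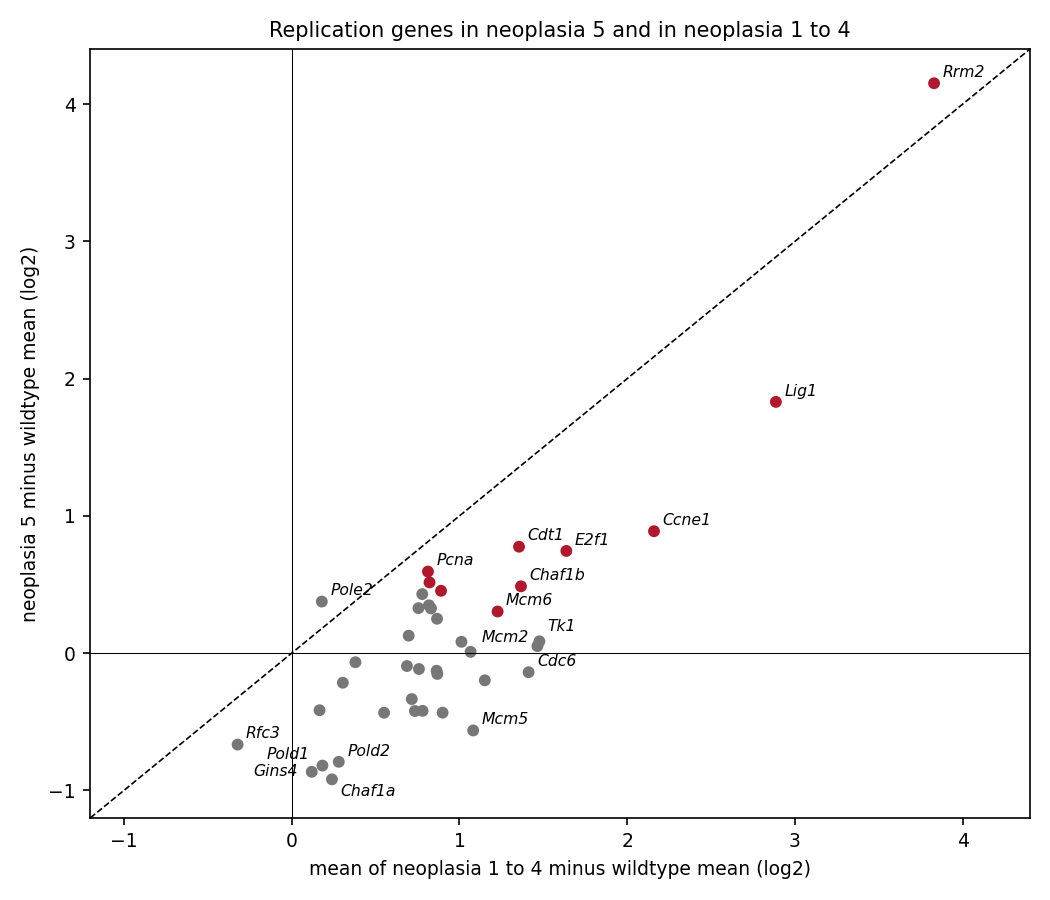
Difference from the wildtype mean on neoplasia 5 (y axis, log2) against that of the mean of neoplasia 1 to 4 (x axis, log2) for the 41 replication genes, red where the full comparison passed the test. The dashed line marks equal values; Rrm2 and Pole2 lie above it, and Lig1 lies at 1.83 against 2.89.

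Other genes of the same processes, listed apart from the 43, were counted in the same fit, in which 16.8% of all features rose and 13.5% fell. Of 18 further licensing and firing factors, 1 rose and 1 fell (median 0.22). Gmnn, geminin, the inhibitor of Cdt1, was at -1.51, -1.34 and -1.06 in wildtype 1 to 3 and 0.85, 0.13, 0.80, 1.77 and 0.24 in neoplasia 1 to 5. The groups did not overlap, and Gmnn rose by 2.06 ± 0.37 (SE) (limma adjusted p = 0.00623), a call held with any 1 array left out. Orc3, an origin complex subunit, had levels of 2.23, 2.17 and 2.59 in wildtype 1 to 3 and 1.62, 1.33, 1.45, 1.48 and 1.89 in neoplasia 1 to 5 and fell by 0.78 ± 0.20 (SE) (adjusted p = 0.0246), lost when any wildtype array or neoplasia 3 was left out. Of 28 other fork and chromatin factors, 3 rose and 0 fell (median 0.24). Rnaseh2a, the catalytic subunit of RNase H2, rose by 1.86 ± 0.40 (SE) (adjusted p = 0.0123, lost without wildtype 1 or 2). Pold4 and Pole4, small subunits of polymerases delta and epsilon, rose by 1.38 ± 0.24 (SE) and 0.91 ± 0.30 (SE) (adjusted p = 0.00512 and 0.0494). Pold4 kept its call with any 1 array left out, and Pole4 lost it without any 1 array other than neoplasia 5. Of 14 other nucleotide synthesis enzymes tested, 1 rose and 0 fell (median 0.29). Dck, which salvages deoxycytidine, was at -4.42, -4.32 and -4.24 in wildtype 1 to 3 and -2.50, -2.60, -1.43, -0.35 and -2.43 in neoplasia 1 to 5 and rose by 2.46 ± 0.51 (SE) (adjusted p = 0.011), with any 1 array left out as well. With spike-in scaling, of these 6 genes Dck passed and Gmnn, Orc3, Rnaseh2a, Pold4 and Pole4 did not (adjusted p 0.0764 to 0.81), and with slide row as a block none of the 6 passed.

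Of 12 other E2F and Rb family regulators, 0 passed the test (limma; 1 higher and 0 lower at an unadjusted p under 0.05), with a median of 0.30. The 1 at the unadjusted threshold was E2f4, with a difference of 1.35 ± 0.51 (SE). Its probe was dim, well above background on 1 wildtype array and 4 neoplasia arrays. E2f8 differed by 1.04 ± 0.66 (SE) and E2f3 by 0.47 ± 0.30 (SE), and Rb1 by 0.06 ± 0.22 (SE). E2f5 differed by -0.88 ± 0.39 (SE), with all 5 neoplasias below the wildtype arrays. Of the 12 differences, 10 were positive and 2 negative. Of 9 tested markers of G2 and mitosis, 0 passed in the same test, also at an unadjusted p under 0.05. Their differences ran from -0.63 for Top2a to 0.63 for Foxm1 (median 0.20), and 7 of the 9 were positive. The array medians of these markers from the wildtype mean were 1.41, -0.13, -0.24, 0.84 and -0.95 in neoplasia 1 to 5. Mki67, the gene of the Ki-67 antigen, was at 2.64, 3.04 and 3.17 in wildtype 1 to 3 and 3.77, 2.99, 2.95, 3.76 and 2.29 in neoplasia 1 to 5. Top2a, a topoisomerase of dividing cells, was at 0.19, 0.59 and 0.88 in wildtype 1 to 3 and 0.61, -0.25, -0.75, 0.70 and -0.71 in neoplasia 1 to 5. Neoplasia 1 and 4 lay above all wildtype arrays for 8 of the 9 markers each, and neoplasia 5 below all of them for 9 of 9. Over all features these shares were 48.2%, 48.1% and 38.1%. On neoplasia 2 and 3 the replication genes had positive medians, 0.52 and 0.69, where the medians of these markers were below 0. On these 2 arrays 3 and 2 of the 9 markers were above the wildtype mean, and 7 and 5 lay within the wildtype range.

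**Figure D5:**
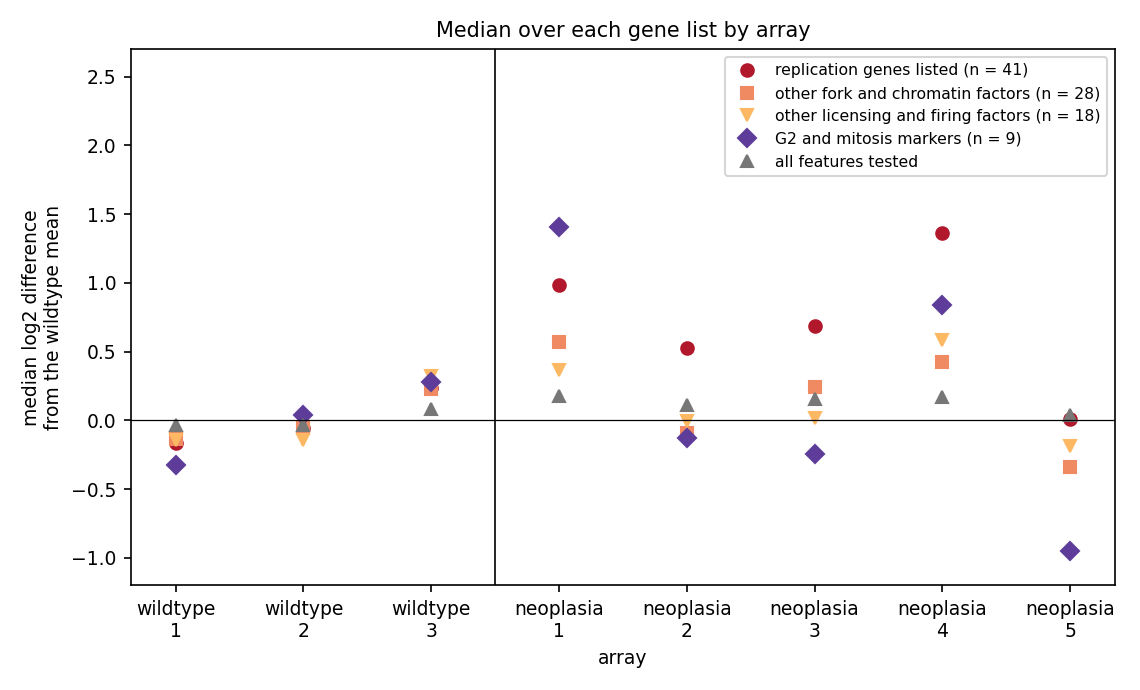
Median over each gene list of the difference from the wildtype mean (y axis, log2) on each array (x axis); the vertical line parts wildtype from neoplasia. The red circles of the 41 replication genes lie at 0.52 to 1.36 on neoplasia 1 to 4 and at 0.01 on neoplasia 5, and the purple diamonds of the G2 and mitosis markers lie above 0 on neoplasia 1 and 4 and below 0 on neoplasia 2, 3 and 5.

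Markers of ovarian and other cell types differed between the groups, and in bulk RNA fewer cells of a type and less RNA per cell cannot be told apart. Over all features, 16.8% were called higher and 13.5% lower. All 10 oocyte markers were lower in the neoplasia, by most for Padi6, Zar1, Zp1, Oosp1, Nlrp5 and Zp3, and their summed level, in multiples of the array's 75th percentile, was 32.5 to 42.2 in the wildtype and 0.320 to 0.599 in the neoplasia arrays. Zp1, Zp2, Bmp15, Padi6, Zar1 and Figla were well above background on 0 of 5 neoplasia arrays. Granulosa cell markers were lower in 8 of 10 (by most Inha, Hsd17b1, Fshr, Inhba, Cyp19a1 and Amh), with summed levels of 183 to 266 and 50.1 to 91.7, and Fshr, Amh and Cyp19a1 were well above background on 0 of 5 neoplasia arrays. Foxl2, a transcription factor of granulosa cells, differed by 0.43 ± 0.19 (SE) (adjusted p = 0.118), with all 5 neoplasias above the wildtype arrays. It made up 46.4% to 85.4% of the neoplasia sums and 12.1% to 17.9% of the wildtype sums, and the other 9 markers summed to 8.62 to 46.2 and 154 to 234. Luteal cell markers were lower in 8 of 8 (by most Ptgfr, Lhcgr, Hsd3b1, Akr1c18, Prlr and Scarb1), summed at 429 to 783 and 52.2 to 147, with Lhcgr and Ptgfr well above background on 0 of 5. Macrophage markers were higher in 8 of 8, by most Cd14, Msr1, Fcer1g, C1qb, C1qc and C1qa (36.2 to 43.2 and 104 to 210). Epithelium markers were higher in 2 of 8, Krt8 and Krt18, and lower in 2, Epcam and Cdh1 (12.5 to 70.6 and 179 to 767), and lymphocyte markers were higher in 1, Cd3e, and lower in 1 of 9 (3.03 to 4.50 and 3.03 to 12). The lower one, Cd79a, was 0.088 higher with normexp. Erythroid progenitor markers, of cells that divide quickly, were higher in 2 of 6 tested (Alas2 and Ermap, the last at -0.11 in the deposited values). Their sum was 3.73 to 4.54 on wildtype arrays, compared with 10.4, 8.09, 13.5, 32.1 and 60.8 in neoplasia 1 to 5, with Alas2 contributing a rise of 5.53 ± 0.78 (SE) (adjusted p = 0.00231). Without Alas2 the sums were 3.30 to 4.25 and 2.47 to 5.81. The full sum was highest on neoplasia 5, on which the median of the replication genes was lowest. The part of any of these cell types in the levels of the replication genes was not tested.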

How the data were processed

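Per the labels, total RNA of 8 samples was labelled with Cy3. The scanner files, as deposited, give the intensity of each spot on a linear scale. Per the file headers, Agilent Feature Extraction had subtracted background and removed spatial trends, and arrays were not normalized to each other. The deposited value table gives log2 values. Comparing it with the scanner files, every one of its 37932 entries equalled, within 0.001, log2 of the average processed intensity of the spots that share an accession, so scale and direction are known and nothing was centred. Its array medians were 6.03, 6.07 and 5.75 for wildtype 1 to 3, and for neoplasia 1 to 5 they were 4.80, 5.37, 5.21, 4.99 and 5.33. Partek is named in the submitters' processing notes, its role is not.

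Control and outlier-flagged spots were left out, spots of a probe were averaged, and 168 probes with all spots flagged on some array were dropped. RefSeq's gene table for GRCm38.p6, searched by accession without version, gave 20113 symbols to 26523 of 55513 probes. Values were log2 intensity minus the 75th percentile of the array over non-control spots. A probe was kept if 3 or more arrays had it well above background, and the probe with the highest mean stood for a gene. The test was limma 3.58.1 (R 4.3.3; lmFit, then eBayes, on 2 groups, 6 residual degrees of freedom, two-sided), and p-values were adjusted by Benjamini-Hochberg over 25169 features, with a threshold of 0.05. The number of arrays limits the precision.

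The genes and lists were chosen with earlier results of these data known. All listed genes are named or counted. Values by array are given for those that passed the test with all 8 arrays under any setting, those with an array far from the others and, chosen after values were seen, Rrm1, Tk1, Fen1, Orc6, Chaf1a, Mki67 and Top2a. From the other lists, genes that passed are named, at most 6 of each list by size of difference; 1 marker is not reported here and was left out of its list. Alternatives were normexp (offset 50, on median foreground, as no mean foreground was used), quantile and spike-in scaling, 2 filters, the deposited log2 values, the mean over probes, a block for replicate number or slide row, slide row 2 alone, and leaving out each array.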

Additional observations from a re-analysis of the deposited data

Results flagged for a closer look

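Within the 5 neoplasia arrays, 1 array stood far from the others for 3 of the 41 replication genes: its gap to the nearest array exceeded the 95% critical value of Dixon's ratio, 0.71 of the group's range. Gins4 was lowest on neoplasia 5, at 0.77. Pola1 was lowest on neoplasia 5, at -0.33. Pola2 was highest on neoplasia 4, at -1.82. Of the marker genes, Gdf9 of the oocyte list was lowest on neoplasia 4, at -2.64. Chance marks about 1 in 20 genes in this way, and 6.44% of all features were marked.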

How the results depend on the processing

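Each result was recomputed with 1 choice changed at a time, except that the deposited values differ both in scaling and in averaging by accession. The number of replication genes that rose was 10, against 16.8% of all features. It was 2 with spike-in scaling (2.93% of features), 3 in the deposited log2 values (6.06%) and 0 with the slide row block (6.13% in either direction). It was 11 with normexp, 7 with quantile normalization, 6 without a filter, 10 with all 8 arrays above background and 10 when probes were averaged. Leaving out 1 array gave 1 to 21 (1, 2 and 3 without wildtype 1, 2 and 3, and 7, 8, 6, 5 and 21 without neoplasia 1 to 5). Without neoplasia 5 the share of all features was 22.5%. For the settings with no share beside them, that of all features is not given, so their counts are not set against it. The number that fell, 0, was 1 in the deposited values (Rfc3), against 24.4% of features, and 0 with each array left out. The median difference of 0.71 was 0.11 with spike-in scaling, 0.0092 both with the slide row block and in slide row 2 alone, and 0.55 to 0.82 with 1 array left out. The median of neoplasia 5 minus neoplasia 1 to 4, -0.92, was -1.60 with spike-in scaling and -0.99 to -0.79 with 1 array left out. The cause of these shifts was not tested.

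Fitted differences changed sign for genes that had not passed the test, and for 2 markers that had. With normexp these were Rfc2 -0.055 and Cd79a 0.088, the last a lymphocyte marker called lower. With quantile normalization they were Rfc2 -0.24 and Chaf1a -0.068. With spike-in scaling they were Mcm3 -0.091, Mcm7 -0.011, Gins1 -0.24, Pola1 -0.089, Pole2 -0.38, Pold2 -0.53, Rfc1 -0.30, Rfc2 -0.54, Rfc4 -0.011, Rfc5 -0.064, Dut -0.39, Chaf1a -0.59 and Uhrf1 -0.054. In the deposited values they were Gins1 -0.12, Pole2 -0.25, Pold2 -0.41, Rfc1 -0.18, Rfc2 -0.42, Dut -0.27, Chaf1a -0.46 and Ermap -0.11, the last an erythroid marker called higher, which was -1.19 with the mean over its probes. With the slide row block and in slide row 2 alone, which give equal differences, they were Cdc6 -0.14, Mcm3 -0.42, Mcm5 -0.56, Mcm7 -0.12, Mcm10 -0.43, Gins1 -0.43, Pola1 -0.33, Prim1 -0.13, Pole -0.20, Pold2 -0.79, Rfc1 -0.066, Rfc2 -0.42, Rfc5 -0.094, Tyms -0.15, Dut -0.22, Chaf1a -0.92 and Uhrf1 -0.42. With 1 array left out, Chaf1a from -0.27 to 0.24, Pold1 from -0.13 to 0.18, Pole2 from -0.0039 to 0.59, Pold2 from -0.092 to 0.28, Rfc2 from -0.075 to 0.17, Dut from -0.021 to 0.35 and Gins4 from -0.16 to 0.12 crossed 0. None of the 10 genes that rose changed sign under any of these settings.

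The titles number the replicates in both groups. The numbers gave no sign of pairing the samples: same-numbered arrays' deviations correlated at -0.05, -0.03 and 0.00. Differently numbered arrays were not correlated for comparison, so a weak pairing was not tested. With the replicate block, 5 genes rose (Chaf1b, E2f1, Lig1, Mcm6 and Rrm2) and 0 fell. The share of all features in that fit is not given, so this count is not set against it. The median was 0.69, against 0.16 over all features, and the sign turned for Gins4 0.13, Pole2 -0.077, Pold1 0.13 and Chaf1a -0.054.

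Limits: dim probes (Tyms, Cdc6, Cdc45, Pola2) lie near background, and a level says nothing of protein or of the share of cells in S phase. The wildtype group has 3 arrays, and 9 of the 10 calls depend on at least 1 of them. Slide row 2 holds a single neoplasia.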
